A study of Mus musculus with 10 samples.

Results

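The mouse genome carries 5 genes for the AP-2 transcription factors, Tcfap2a, Tcfap2b, Tcfap2c, Tcfap2d and Tcfap2e in the mm9 naming, now called Tfap2a to Tfap2e. These 5 genes were picked by name from the 22350 protein-coding genes of the mm9 GENCODE annotation, by a rule that uses no measured value, though earlier results of these data were known when the family was chosen. Around each gene, the peaks of 6 ChIP-seq peak lists that overlapped the gene body or the 10 kb on either side were collected, a stretch called the window from here on. All 5 genes had a peak of at least 1 list in their window, as did 3960 of the 22350 genes.

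The peaks came from J1 mouse embryonic stem cells (ESCs) and from neural stem cells (NSCs) that had been made from J1 ESCs in culture, with no genetic change or drug named in the labels for either. ESCs were grown with 15% serum and 1000 U/ml LIF on mitomycin-C-inactivated feeder fibroblasts that were depleted at harvest. NSCs were grown on gelatin in NS media with 10 ng/ml of EGF and FGF. Chromatin of both was fixed in 1% formaldehyde for 10 min and sheared to about 250 bp. For the Ring1b libraries the paper's methods, but not the labels, give a further crosslinker, EGS, before formaldehyde, so where Ring1b peaks are set beside those of other targets the fixation differs too, and its part was not tested. ESCs were profiled for Ring1b, Cbx2, Ezh2 and H3K27me3, and NSCs for Ring1b and H3K27me3, with 1 library for each cell type and target. There was therefore no replicate check on any difference between lists, and no test was run. NSCs derived in culture from this ESC line stand for neural stem cells in general only as far as that derivation goes.

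Each list holds peak positions without a height or score. A peak is a run of 1 kb windows, set every 200 bp, with more tags than expected from input. Enriched windows up to 1 kb apart were joined, so the bases counted as covered can include short stretches that were not enriched themselves. No peak was narrower than 1000 bp. The lists held 1033 to 2335 peaks in ESCs, with median widths of 1400 to 2200 bp, and 1389 and 1647 peaks in NSCs, with median widths of 1400 and 1600 bp. The number of reads behind each list is unknown, so a gene without a peak was a gene where no stretch passed the threshold, and fewer or narrower NSC peaks cannot be told apart from a library of lower depth or enrichment. No start site of 5 ESC marker genes (Pou5f1, Nanog, Klf4, Esrrb and Zfp42) lay in a peak of any list. Of 6 NSC marker genes, 5 were found in the annotation under the symbol used (all but Sox1), and the start sites of Nes, Pax6 and Olig2 lay in ESC Ring1b peaks while none of the 5 lay in an NSC peak. The start site of Sox2, which both cell types use, lay in an NSC H3K27me3 peak and in no other. Peak lists do not measure expression, so these markers do not check the identity of the cells.

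AP-2 proteins are DNA-binding factors that pair with each other through a helix-span-helix domain and bind GC-rich sites. Tcfap2a and Tcfap2b are known for their roles in the neural crest, face, limb and kidney, Tcfap2c for its roles in trophoblast and primordial germ cells, Tcfap2d for expression in midbrain, retina and heart, and Tcfap2e for the olfactory bulb and skin. Polycomb group (PcG) proteins keep developmental genes of this kind silent in cells that do not use them. They act in complexes called PRC1, which holds the ubiquitin ligase Ring1b and, in some forms, a Cbx protein such as Cbx2, and PRC2, whose catalytic subunit Ezh2 methylates lysine 27 of histone H3 to give H3K27me3. Cbx proteins can bind H3K27me3, and variant forms of PRC1 without a Cbx protein can reach chromatin without it. In mammals PcG complexes gather at stretches rich in CpG dinucleotides.

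The start regions below are shown because the peaks of the 6 lists differ there between the genes and between the cell types. They run 5′ to 3′ in the direction of transcription, from 250 bases before to 50 after a RefSeq start, and capitals mark CpGs. RefSeq entries of the GRCm38.p6 table were at hand for 4 of the 5 genes (not Tcfap2c), 7 in all, and each of the 7 was found once, as an exact match, in mm9. The first sequence, of Tcfap2a (chr13:40829115-40829414, minus strand), had its start 28 bp inside the GENCODE start and lay in peaks of all 4 ESC lists and of NSC Ring1b. The stretch of 200 bases marked as upstream (chr13:40833399-40833598, minus strand, read from the mm9 genome) has the most CpGs of the NSC H3K27me3 peak that lay before the gene. The sequence of Tcfap2b (chr1:19201885-19202184, plus strand) belongs to a start 3140 bp inside the gene, which was in ESC Ring1b and H3K27me3 peaks and in no NSC peak. The first sequence of Tcfap2d (chr1:19092853-19093152, plus strand) ends 50 bases past the GENCODE start, and that start lay in ESC Ring1b and Cbx2 peaks. The inner sequence of Tcfap2d (chr1:19093964-19094263, plus strand) belongs to a start 1111 bp further in, which also lay in an NSC H3K27me3 peak. The sequence of Tcfap2e (chr4:126413464-126413763, minus strand) lay in ESC Ring1b, Ezh2 and H3K27me3 peaks and in no NSC peak.
Tcfap2a: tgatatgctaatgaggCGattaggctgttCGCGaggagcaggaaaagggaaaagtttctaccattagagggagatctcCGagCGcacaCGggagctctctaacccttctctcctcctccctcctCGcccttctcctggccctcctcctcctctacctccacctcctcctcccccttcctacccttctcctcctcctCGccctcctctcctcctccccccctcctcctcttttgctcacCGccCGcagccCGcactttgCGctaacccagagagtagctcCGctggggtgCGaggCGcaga
Tcfap2a upstream: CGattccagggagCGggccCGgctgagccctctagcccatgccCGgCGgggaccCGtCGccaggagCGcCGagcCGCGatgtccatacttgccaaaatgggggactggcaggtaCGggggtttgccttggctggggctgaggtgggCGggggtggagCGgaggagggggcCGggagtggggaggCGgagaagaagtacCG
Tcfap2b inner start: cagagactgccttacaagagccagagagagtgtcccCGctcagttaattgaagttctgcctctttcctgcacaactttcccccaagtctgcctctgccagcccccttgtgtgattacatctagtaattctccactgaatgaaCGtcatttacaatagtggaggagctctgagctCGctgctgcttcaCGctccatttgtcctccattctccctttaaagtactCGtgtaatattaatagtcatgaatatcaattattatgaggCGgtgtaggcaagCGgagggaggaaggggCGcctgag
Tcfap2d: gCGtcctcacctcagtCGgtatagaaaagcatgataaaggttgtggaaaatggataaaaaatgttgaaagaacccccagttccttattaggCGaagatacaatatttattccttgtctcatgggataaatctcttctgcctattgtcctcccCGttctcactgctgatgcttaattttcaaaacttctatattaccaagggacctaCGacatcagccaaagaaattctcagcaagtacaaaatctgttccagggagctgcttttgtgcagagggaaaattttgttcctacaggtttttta
Tcfap2d inner start: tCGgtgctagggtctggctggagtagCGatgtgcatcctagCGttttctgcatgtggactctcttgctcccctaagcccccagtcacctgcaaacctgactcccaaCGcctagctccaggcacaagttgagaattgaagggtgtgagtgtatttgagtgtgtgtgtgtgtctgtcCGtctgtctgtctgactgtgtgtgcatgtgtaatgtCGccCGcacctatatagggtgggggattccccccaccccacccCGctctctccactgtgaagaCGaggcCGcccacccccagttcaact
Tcfap2e: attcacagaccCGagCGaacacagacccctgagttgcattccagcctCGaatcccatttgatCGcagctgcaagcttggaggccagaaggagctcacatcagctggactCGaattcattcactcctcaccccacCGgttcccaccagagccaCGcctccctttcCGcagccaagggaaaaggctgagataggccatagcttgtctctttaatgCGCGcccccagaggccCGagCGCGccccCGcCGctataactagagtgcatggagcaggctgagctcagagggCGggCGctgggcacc

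The first question was at which AP-2 genes each factor or mark was found in ESCs. The start site of a gene is taken here as the 5′ end of its GENCODE model. Ring1b was found over the start site of all 5 AP-2 genes in ESCs, against 7.03% of all genes. Cbx2 was found at 3 of the 5 start sites (Tcfap2a, Tcfap2b and Tcfap2d), against 1.15% of all genes. Ezh2 and H3K27me3 were found at the same 3 start sites as each other (Tcfap2a, Tcfap2b and Tcfap2e), against 2.56% and 4.31% of all genes. Thus Tcfap2a and Tcfap2b had peaks of all 4 ESC lists at their start, Tcfap2d had the PRC1 subunits without a PRC2 peak, Tcfap2e had Ring1b with PRC2 and its mark but no Cbx2 peak, and Tcfap2c had a Ring1b peak alone.

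In NSCs, Ring1b was found at 3 of the 5 start sites (Tcfap2a, Tcfap2b and Tcfap2c), against 1.74% of all genes. H3K27me3 was found at 2 of the 5 (Tcfap2b and Tcfap2c), against 1.77%. Of all start sites in an ESC Ring1b peak, 16.7% were also in an NSC Ring1b peak, and of the AP-2 genes 3 of 5 were. Of all start sites in an ESC H3K27me3 peak, 25.4% were also in an NSC H3K27me3 peak, and of the 3 AP-2 genes with such an ESC peak only Tcfap2b was. Of the start sites outside ESC H3K27me3 peaks, 0.701% lay in an NSC H3K27me3 peak, and of the 2 AP-2 genes of that kind Tcfap2c did. No 2 of the 5 genes had the same set of lists at their start site.

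Over the whole window, ESC Ring1b peaks were found at all 5 genes (11.5% of all genes), ESC Cbx2 peaks at 3 (3.09%), ESC Ezh2 peaks at 3 (5.28%) and ESC H3K27me3 peaks at 3 (9.97%). NSC Ring1b peaks were found at 3 genes (4.64%) and NSC H3K27me3 peaks at 4 (4.7%). The window and start site counts differed for NSC H3K27me3 alone, since at Tcfap2a and Tcfap2d the mark lay beside the start.

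**Figure D1:**
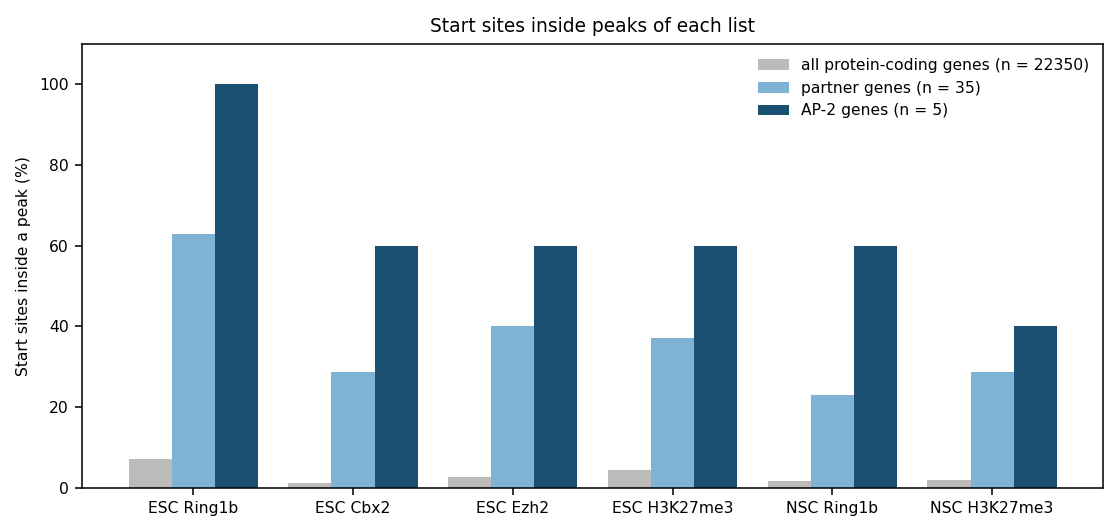
Percentage of start sites inside a peak, for each of the 6 lists, in all 22350 protein-coding genes (grey), 35 partner genes of AP-2 described further on (light blue) and the 5 AP-2 genes (dark blue). ESC Ring1b held all 5 AP-2 start sites, and no list held fewer than 2 of them.

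The 5 windows together were 241 kb long. ESC Ring1b peaks covered 56.7 kb of them, or 23.6%. Over all genes, with the bases of all their windows pooled, the share was 0.676%. ESC Cbx2 peaks covered 25.8 kb (10.7%, against 0.204% over all genes), ESC Ezh2 peaks 14.4 kb (5.97%, against 0.25%) and ESC H3K27me3 peaks 22.0 kb (9.15%, against 0.429%). In NSCs, Ring1b peaks covered 27.8 kb (11.5%, against 0.253%) and H3K27me3 peaks 14.4 kb (5.99%, against 0.274%). The coverage was unevenly shared, with Tcfap2a holding the most covered bases in all lists except NSC H3K27me3, where Tcfap2c held more.

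**Figure D2:**
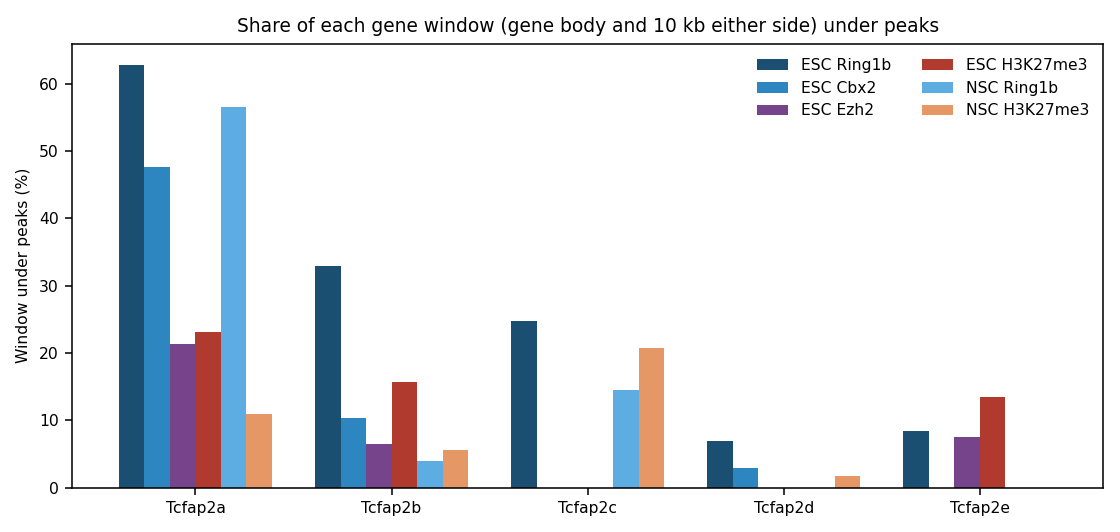
Share of each gene's window (gene body and 10 kb on either side) under peaks, in percent, for the 6 lists. Tcfap2a reached 62.8% for ESC Ring1b and 56.5% for NSC Ring1b, and Tcfap2c was the gene with the highest share for NSC H3K27me3, at 20.7%.

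Tcfap2a (ENSMUSG00000021359.8, chr13:40811044-40829192, minus strand, 18.1 kb with 8 exon blocks) had the widest PcG domain of the family. Its start site lay in an ESC Ring1b peak of 13.6 kb, the 65th widest of the 2335 peaks of that list, which ran from 6.61 kb before to 6.99 kb after the start and took in 3 of the 8 exon blocks whole. The ESC Cbx2 peak over the start was wider still, at 14.4 kb, the 10th widest of 1033, from 6.61 kb before to 7.79 kb after the start. Cbx2 thus spanned nearly the same ground as Ring1b.

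The Ezh2 and H3K27me3 peaks over the Tcfap2a start in ESCs were narrower than the Ring1b and Cbx2 peaks, but were also among the wider ones of their own lists. The Ezh2 peak was 6.8 kb wide, the 46th widest of 1173, from 2.01 kb before to 4.79 kb after the start. The H3K27me3 peak was also 6.8 kb wide, the 54th widest of 2192, from 2.41 kb before to 4.39 kb after it. Further upstream but still within the Ring1b peak lay a smaller Ezh2 peak of 1 kb and a smaller H3K27me3 peak of 2 kb. A second ESC Ring1b domain of 12.4 kb lay past the end of the gene, from 19.2 to 31.6 kb beyond the start site, over the annotated gene Gm9979, and it held 2 Cbx2 peaks and 1 Ezh2 peak. Its far end also overlapped an ESC H3K27me3 peak of 1.4 kb that lay 2.64 kb outside the window. The peaks over the start of Tcfap2a also overlapped another annotated gene, Gm16989, and peaks cannot say which of the pair they belong to.

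In NSCs, Ring1b at Tcfap2a stayed broad and H3K27me3 did not cover the start. The NSC Ring1b peak over the start was 12.4 kb wide, the 36th widest of 1389, from 1.61 kb before to 10.8 kb after the start. It took in 5 of the 8 exon blocks, so that against the ESC peak it reached less far upstream and further into the gene. The downstream Ring1b domain was 11.2 kb wide in NSCs. Of the window, 17.6 kb lay under Ring1b peaks of both cell types, 6.39 kb under ESC peaks only and 4.0 kb under NSC peaks only, and these were the only bases of the 5 windows with Ring1b in NSCs alone.

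The H3K27me3 peaks of Tcfap2a in NSCs were a peak of 2.6 kb, from 5.81 to 3.21 kb before the start, and a peak of 1.6 kb inside the downstream Ring1b domain. A further NSC H3K27me3 peak, of 2.0 kb, lay in the same ESC Ring1b domain but 1.24 kb outside the window. The gene body, of which 24.2% was under H3K27me3 peaks in ESCs, had 0% under them in NSCs, while its share under Ring1b peaks was 44.0% in ESCs and 59.5% in NSCs. The upstream H3K27me3 peak lay within the ESC Ring1b peak but outside the NSC Ring1b peak, and the stretch printed above as Tcfap2a upstream is part of it. NSC Ring1b and H3K27me3 peaks shared 1.6 kb at Tcfap2a, or 7.42% of the bases under Ring1b. Of the 168 genes with all 4 ESC lists at the start, 17 had the same set of lists as Tcfap2a (all 4 in ESCs and Ring1b alone in NSCs). Of the same 168 genes, 51.2% had an NSC Ring1b peak there, and Tcfap2a and Tcfap2b were among them.

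**Figure D3:**
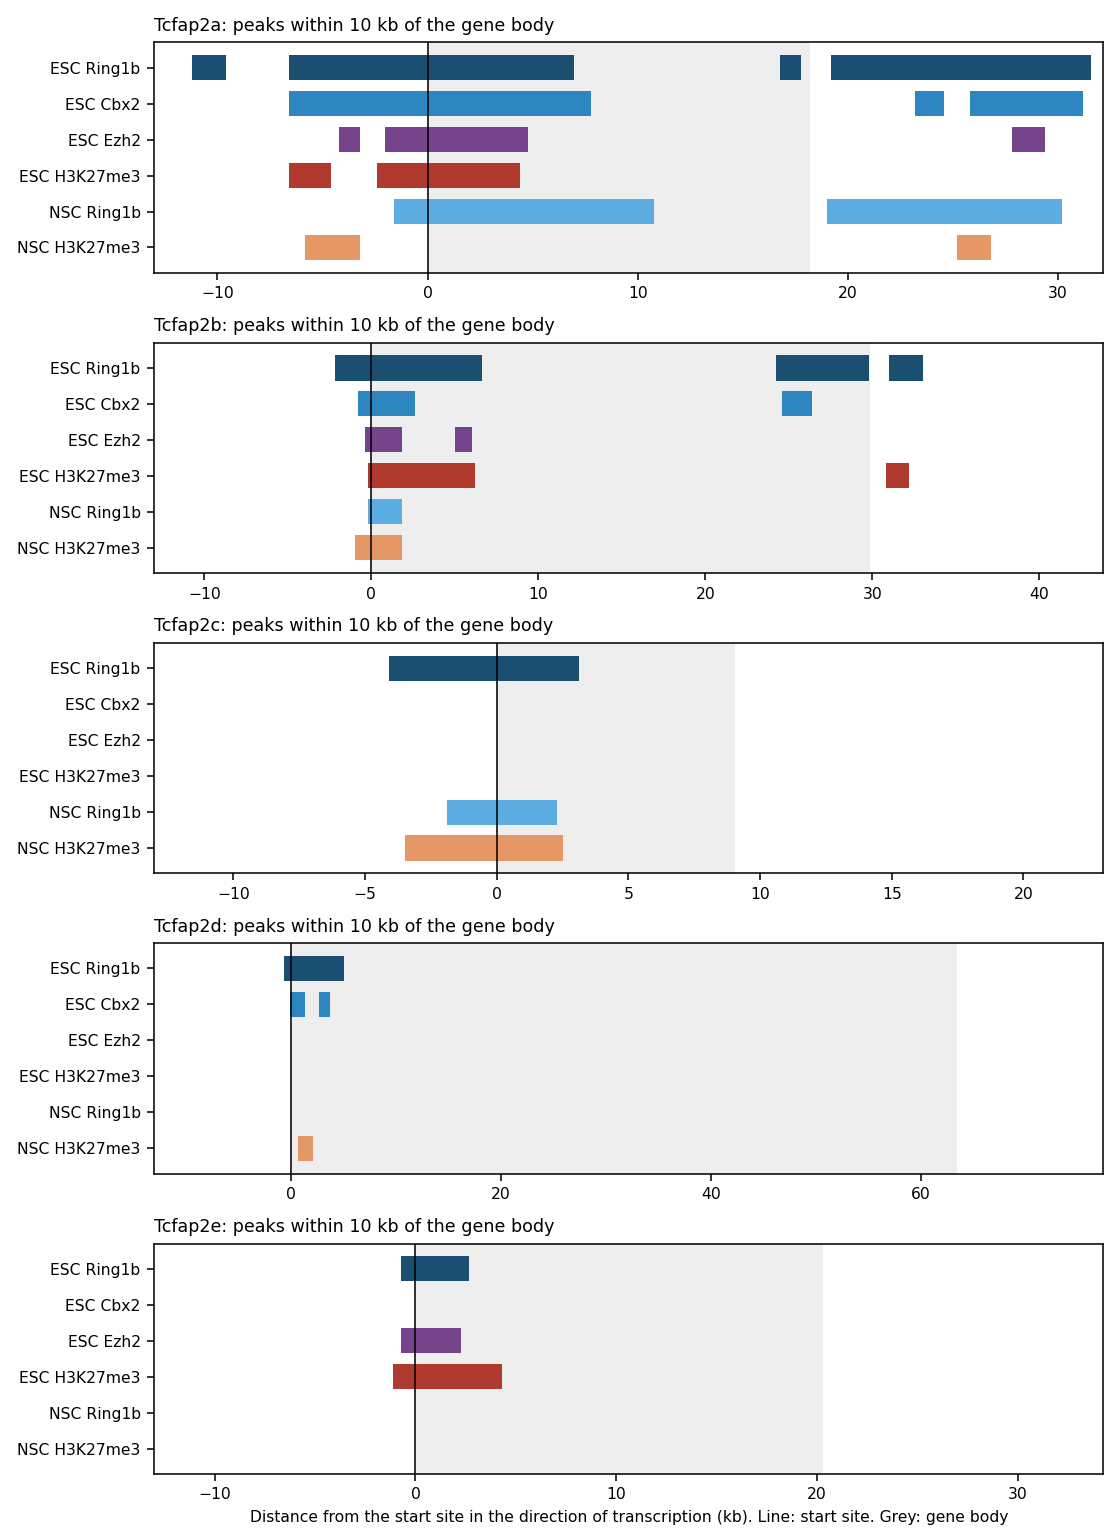
Peaks of the 6 lists at the 5 AP-2 genes, by distance from the start site in kb along the direction of transcription. The vertical line is the start site and the grey area the gene body. At Tcfap2a the NSC H3K27me3 peaks lie before the start and past the end of the gene, while at Tcfap2b and Tcfap2c the NSC peaks of Ring1b and H3K27me3 lie over the start.

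Tcfap2b (ENSMUSG00000025927.6, chr1:19198995-19228815, plus strand, 29.8 kb with 8 exon blocks) kept both NSC marks at its start over a much smaller stretch. In ESCs its start lay in a Ring1b peak of 8.8 kb, a Cbx2 peak of 3.4 kb, an Ezh2 peak of 2.2 kb and an H3K27me3 peak of 6.4 kb, the last being the 70th widest of 2192. In NSCs the Ring1b peak at the start was 2.0 kb wide and the H3K27me3 peak 2.8 kb. Both NSC peaks ended at the same position, 1.8 kb inside the gene, which was also the end of the ESC Ezh2 peak.

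Tcfap2b had far fewer covered bases in the NSC lists. Ring1b peaks covered 16.4 kb of its window in ESCs and 2.0 kb in NSCs, all of which lay within the ESC peaks. H3K27me3 peaks covered 7.8 kb in ESCs and 2.8 kb in NSCs, with 2.0 kb in common. The ESC peaks without an NSC counterpart included a Ring1b peak of 5.6 kb over the end of the gene, with a Cbx2 peak of 1.8 kb inside it, and a Ring1b peak of 2 kb with an H3K27me3 peak of 1.4 kb past the end. They also included the part of the start peak over the RefSeq start 3140 bp inside the gene, whose sequence is printed above. Of the 3 annotated GENCODE starts of Tcfap2b, all lay in ESC Ring1b peaks and 2 in NSC Ring1b peaks. In all, 69 genes had peaks of all 6 lists at their start site as Tcfap2b did.

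Tcfap2c (ENSMUSG00000028640.5, chr2:172375093-172384122, plus strand, 9.03 kb with 9 exon blocks) had Ring1b without any other ESC peak. The ESC Ring1b peak was 7.2 kb wide, from 4.09 kb before to 3.11 kb after the start, and took in all 6 annotated starts of the gene and 5 of its 9 exon blocks. The nearest ESC peaks of other lists were 102 kb (Cbx2), 178 kb (H3K27me3) and 389 kb (Ezh2) from the start. In width this peak ranked 200 among the 2335 ESC Ring1b peaks, above the median width of 2200 bp.

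In NSCs, an H3K27me3 peak was found at Tcfap2c. It was 6.0 kb wide, from 3.49 kb before to 2.51 kb after the start, the 120th widest of 1647, and held 5 of the 6 starts. The NSC Ring1b peak was 4.2 kb wide and lay wholly inside both the NSC H3K27me3 peak and the ESC Ring1b peak. Ring1b therefore covered 3.0 kb less of the window in NSCs, and H3K27me3 6.0 kb more. Of the 699 genes whose start site lay in an ESC Ring1b peak and in no other ESC peak, 19 (2.72%) had peaks of both NSC lists there, and Tcfap2c was among these. With no score in the lists, H3K27me3 at Tcfap2c in ESCs may be absent or just below the threshold, and these cannot be told apart here.

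Tcfap2d (ENSMUSG00000042596.7, chr1:19093103-19156427, plus strand, 63.3 kb with 9 exon blocks) had PRC1 peaks in ESCs and a small H3K27me3 peak in NSCs. The ESC Ring1b peak was 5.8 kb wide, from 0.702 kb before to 5.1 kb after the start. Inside it lay 2 Cbx2 peaks of 1.4 and 1 kb, the first over the start. When only peaks at least 2 kb wide were counted, these Cbx2 peaks dropped out and Tcfap2d had Ring1b alone at its start in ESCs. The count of AP-2 start sites in Cbx2 peaks then went from 3 to 2. No Ezh2, ESC H3K27me3 or NSC Ring1b peak lay within the window, and the nearest peaks of these lists were those over the Tcfap2b start, 105 to 106 kb away.

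The NSC H3K27me3 peak of Tcfap2d was 1.4 kb wide and began 698 bp after the start. It lay wholly within the former ESC Ring1b peak, held the RefSeq start 1111 bp inside the gene, and overlapped another annotated gene, Gm15825. Of the 21 genes with Ring1b and Cbx2 but neither Ezh2 nor H3K27me3 at the start in ESCs, 9 (42.9%) had no NSC peak at the start, Tcfap2d among them. When a peak within 1 kb of the start was counted too, Tcfap2d was added and the count of AP-2 genes with NSC H3K27me3 went from 2 to 3.

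Tcfap2d and Tcfap2b are neighbours on chromosome 1, in the same orientation and 42.6 kb apart. Each list had 1 peak that reached into the stretch between them, and in each case it was the edge of the peak over the Tcfap2b start, which took up 194 to 2194 bp of it. In ESC Ring1b, ESC Cbx2 and NSC H3K27me3, the lists with peaks at both genes, the peaks of the pair were separate. The neighbours differed in all but ESC Ring1b and Cbx2, since Ezh2, ESC H3K27me3 and both NSC lists held the start of Tcfap2b and not that of Tcfap2d.

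Tcfap2e (ENSMUSG00000042477.7, chr4:126393250-126413484, minus strand, 20.2 kb with 7 exon blocks) had ESC peaks over its start and none in NSCs. The ESC Ring1b peak was 3.4 kb wide, from 0.716 kb before to 2.68 kb after the start, and the Ezh2 peak of 3.0 kb began at the same place. The H3K27me3 peak was 5.4 kb wide, the 100th widest of 2192, and held the Ring1b peak whole. Tcfap2e was the only member whose ESC H3K27me3 peaks covered more bases than its ESC Ring1b peaks (5.4 against 3.4 kb).

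No NSC peak lay near Tcfap2e, the nearest being 329 kb (Ring1b) and 435 kb (H3K27me3) from the start, and the nearest ESC Cbx2 peak was 1840 kb away. Its ESC pattern of Ring1b, Ezh2 and H3K27me3 without Cbx2 was shared by 261 genes, of which 164 (62.8%) had no NSC peak at the start.

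Between the cell types, most bases under NSC Ring1b at the AP-2 genes had been under Ring1b in ESCs, and most bases under NSC H3K27me3 had not been under H3K27me3 in ESCs. Of the 27.8 kb under NSC Ring1b peaks, 23.8 kb (85.6%) were under ESC Ring1b peaks too, where the share over the windows of all genes was 55.3%. That share takes in windows without an ESC Ring1b peak, while all 5 AP-2 windows held one. Of the 56.7 kb under ESC Ring1b peaks, 33 kb had no NSC Ring1b peak. Of the 14.4 kb under NSC H3K27me3 peaks, 3.2 kb (22.2%) were under ESC H3K27me3 peaks, against 41.9% over the windows of all genes, with 11.2 kb in NSCs alone and 18.8 kb in ESCs alone. The bases under H3K27me3 in NSCs alone were at Tcfap2c (6.0 kb), Tcfap2a (3.0 kb), Tcfap2d (1.4 kb) and Tcfap2b (0.8 kb).

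**Figure D4:**
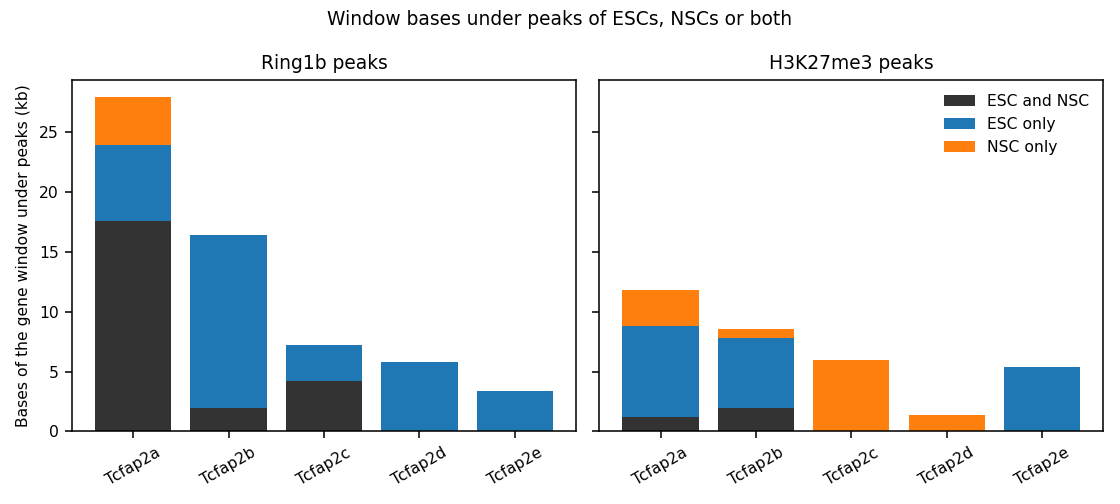
Bases of each gene's window, in kb, under peaks of both cell types (black), of ESCs only (blue) and of NSCs only (orange), for Ring1b on the left and H3K27me3 on the right. Ring1b was found in NSCs alone only at Tcfap2a (4.0 kb), and H3K27me3 in NSCs alone at all genes except Tcfap2e.

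All 14.4 kb of NSC H3K27me3 in the 5 windows lay under ESC Ring1b peaks, where over the windows of all genes 62.8% did. The ESC Ring1b peaks also held all 14.4 kb of Ezh2 (95.5% over the windows of all genes), 19.8 of the 22.0 kb of H3K27me3, or 90.0% (75.4% over all), and 25.0 of the 25.8 kb of Cbx2, or 96.9% (89.0% over all). All 5 AP-2 windows held an ESC Ring1b peak, against 11.5% of the windows of all genes. The shares over all genes thus include windows with no ESC Ring1b peak to lie under, and no comparison was made with genes that have one. These shares rest on 5 genes, and Tcfap2a holds much of the covered length. The H3K27me3 outside ESC Ring1b was almost all at Tcfap2e, with 2.0 kb. In NSCs, Ring1b and H3K27me3 shared 7.8 kb, which was 28.1% of the bases under Ring1b (44.9% over the windows of all genes) and 54.2% of those under H3K27me3 (41.2%). Tcfap2b and Tcfap2c had their NSC Ring1b peaks wholly inside H3K27me3, and Tcfap2a had most of its Ring1b outside it.

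The base composition of the genes was compared with where the peaks lay. The windows were divided into 1198 steps of 200 bp, and a step was called CpG-rich where at least 50% of its bases were G or C and its CpGs were at least 0.6 times the number its C and G content would give. There were 90 CpG-rich steps, 37 of them at Tcfap2a, 21 at Tcfap2c, 12 at Tcfap2b, 11 at Tcfap2d and 9 at Tcfap2e. ESC Ring1b peaks held 68 of the 90 (75.6%), ESC H3K27me3 and Cbx2 peaks 35 each (38.9%) and ESC Ezh2 peaks 32 (35.6%). NSC Ring1b peaks held 43 (47.8%) and NSC H3K27me3 peaks 26 (28.9%). Of all window bases, CpG-rich or not, the 6 lists covered from 5.97% (ESC Ezh2) to 23.6% (ESC Ring1b). The ESC Ring1b share of CpG-rich steps ran from 36.4% at Tcfap2d to 100% at Tcfap2b, and 30 of its 68 steps were at Tcfap2a.

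Steps under Ring1b peaks in both cell types were more often CpG-rich than those under Ring1b in ESCs only. The share was 34.7% of 118 steps under both, 16.5% of 164 under ESC peaks only, 10.0% of 20 under NSC peaks only and 2.23% of 896 under neither. The order of both above ESC only held at each of the 3 genes that had Ring1b in both cell types, with 27.6% against 19.4% at Tcfap2a, 40.0% against 11.1% at Tcfap2b and 61.9% against 20% at Tcfap2c. Steps of a gene lie side by side and are not independent, so these shares are a description. At Tcfap2e, whose Ring1b was in ESCs only, 35.3% of the 17 steps under it were CpG-rich, more than under the Ring1b peaks kept at Tcfap2a. For H3K27me3 the shares were 31.2% of 16 steps under both, 31.9% of 94 under ESCs only and 37.5% of 56 under NSCs only, all above the 3.29% under neither.

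**Figure D5:**
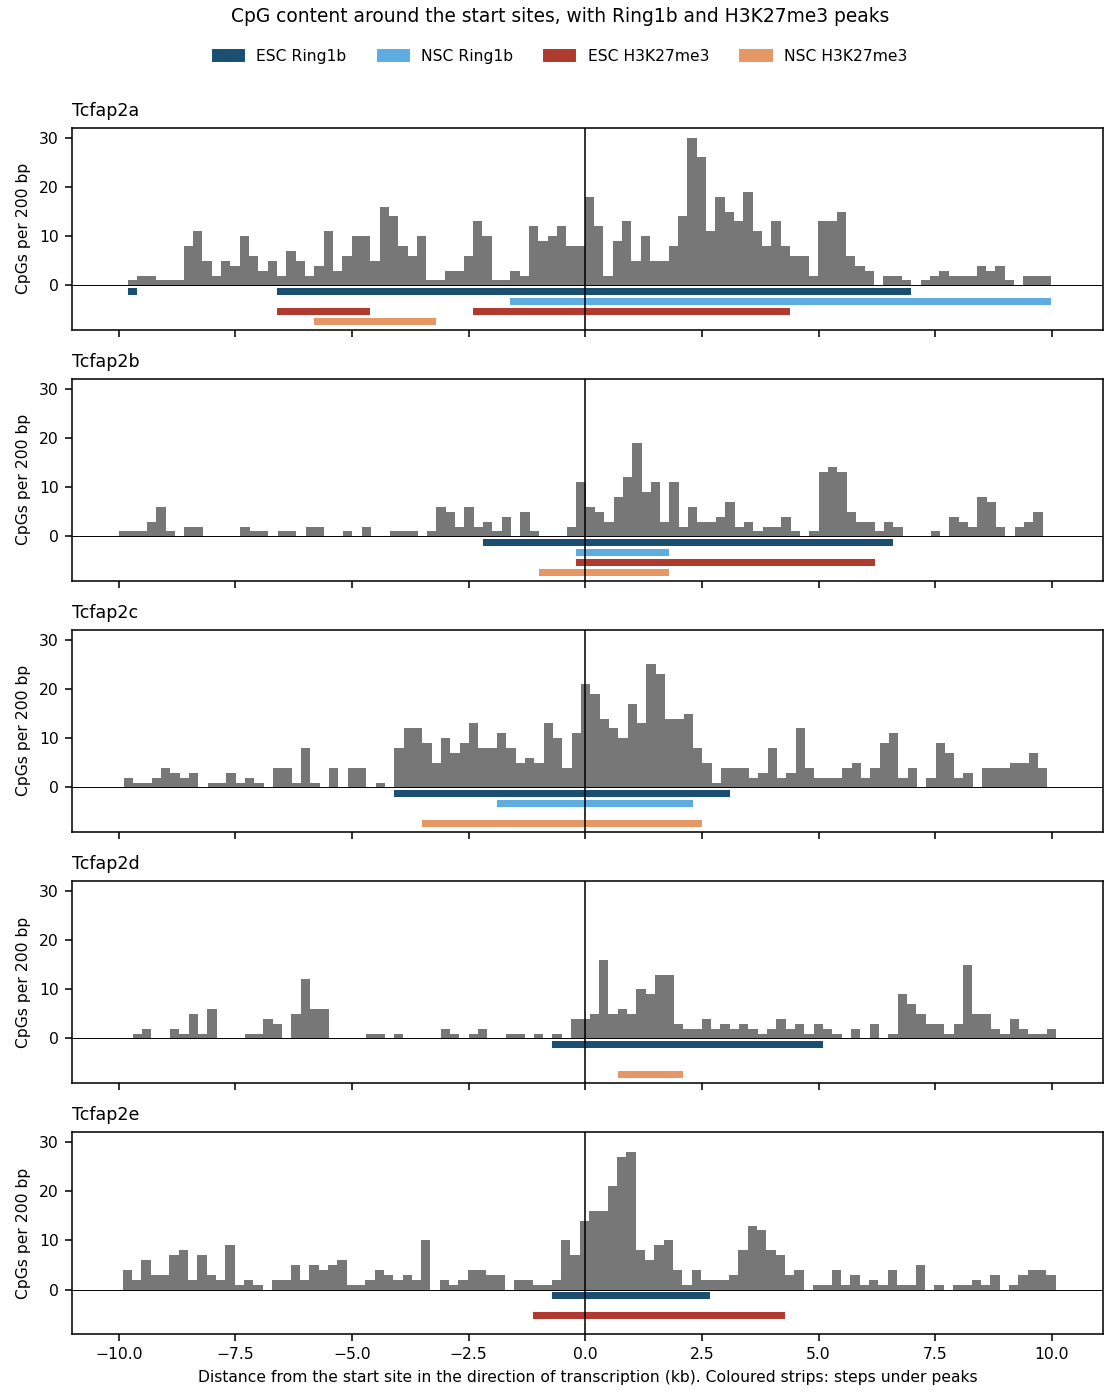
CpGs in each 200 bp step within 10 kb of the start site of the 5 genes (grey bars, counts), with strips under each axis for the steps under ESC Ring1b, NSC Ring1b, ESC H3K27me3 and NSC H3K27me3 peaks. At Tcfap2b the NSC strips run over the start and the CpG-rich steps from 906 to 1506 bp after it, but not the CpG-rich step at 1906 bp. They end before the second CpG-rich cluster, 5 kb inside the gene, which the ESC strips reach.

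The 300 bases around the GENCODE start sites were of different kinds. Tcfap2c had 27 CpGs and 69.0% GC, Tcfap2e 17 CpGs and 59.7% GC, and Tcfap2a 13 CpGs and 59.0% GC. Tcfap2b had 12 CpGs in only 38.7% GC, and Tcfap2d 5 CpGs in 39.7% GC. The medians were 11 CpGs and 55.3% GC over the start regions of 22345 genes, and 23 CpGs and 65.0% GC over the 1571 start sites in ESC Ring1b peaks, so 4 of the 5 AP-2 start regions had fewer CpGs than is typical of ESC Ring1b start sites.

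AP-2 proteins are known to bind the palindrome GCCNNNGGC, which reads the same on both strands. It was in 0 of the 5 start regions, where 18.3% of all start regions and 31.3% of those in ESC Ring1b peaks held it. The windows, which differ in length, held 17 matches at Tcfap2a, 11 at Tcfap2b, 11 at Tcfap2c, 9 at Tcfap2d and 10 at Tcfap2e. Per kb of window they ran from 0.108 at Tcfap2d to 0.446 at Tcfap2a, and no background of other windows was counted. The ESC Ring1b peaks over the start held 11 matches at Tcfap2a, 5 at Tcfap2b, 6 at Tcfap2c, 2 at Tcfap2d and 5 at Tcfap2e. No match was found in the RefSeq start regions printed above. A match of these letters is not a bound site.

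To place the family among genes it works with, 35 partner genes were read from the same lists. They were 9 cofactors of AP-2 proteins, 12 regulators of the neural plate border and neural crest, 12 of trophoblast and surface ectoderm, and 2 of the germline, and all 35 were found in the annotation. Of the 35 start sites, 22 were in ESC Ring1b peaks (7.03% of all genes), 10 in Cbx2 (1.15%), 14 in Ezh2 (2.56%) and 13 in ESC H3K27me3 peaks (4.31%). In NSCs, 8 were in Ring1b peaks (1.74% of all genes) and 10 in H3K27me3 peaks (1.77%).

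Neural plate border and crest genes had the largest count in each list, though the share in ESC Ring1b peaks was larger for the 2 germline genes (100% against 83.3%). Of the 12, 10 were in ESC Ring1b peaks, against 7.03% of all genes. Of these, 4 were also in NSC Ring1b peaks (Pax3, Msx1, Zic1 and Foxd3), as were 16.7% of all start sites in ESC Ring1b peaks. In NSC H3K27me3 peaks were 6 of the 12 (Pax3, Pax7, Msx1, Msx2, Dlx5 and Foxd3), against 1.77% of all genes. These genes were listed as neural plate border and crest regulators, so that shared role was fixed by the choice of list. The 6 without their Ring1b peak in NSCs included Dlx5, Gbx2, Msx2 and Pax7. Msx2 resembled Tcfap2c in having Ring1b as its only ESC list and H3K27me3 in NSCs, but it had no NSC Ring1b peak at its start.

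Of the 12 trophoblast and surface ectoderm genes, 7 were in ESC Ring1b peaks, against 7.03% of all genes. The start sites of Gata2, Gata3 and Eomes were in NSC Ring1b peaks too, as were 16.7% of all start sites in ESC Ring1b peaks. Those of Cdx2, Gata2, Eomes and Grhl2 were in NSC H3K27me3 peaks, against 1.77% of all genes. Gata3, a trophoblast factor, had the NSC state of Tcfap2a, with Ring1b and no H3K27me3 peak at the start. Among the other partner genes, Zic1 and Kctd15 had this NSC state too. The 4 without their Ring1b peak in NSCs were Ascl2, Cdx2, Grhl2 and Hand1.

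In each list, a smaller share of the cofactor genes than of the crest or the trophoblast genes was in peaks. Of the 9, 3 were in ESC Ring1b peaks, against 7.03% of all genes (Cited1 and Cited4, which encode coactivators of AP-2, and Kctd1, which encodes a repressor of it), and none of these 3 was in an NSC Ring1b peak, where 16.7% of all start sites in ESC Ring1b peaks were. Kctd15, which encodes an inhibitor of AP-2 activity, was the only partner gene with an NSC Ring1b peak and no ESC Ring1b peak at its start. The germline regulators Prdm1 and Prdm14 had Ring1b alone in ESCs, like Tcfap2c, and no NSC peak, unlike it. The start sites of Cited4, Kctd1 and Hand1 had this same pattern. Ring1b alone was also common among all genes, at 699 of the 1571 start sites in ESC Ring1b peaks. Over all partner genes, 7 of the 22 in ESC Ring1b peaks were also in an NSC Ring1b peak, beside 3 of the 5 AP-2 genes and 16.7% of all genes in ESC Ring1b peaks.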

How the data were processed

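PcG binding was profiled by ChIP-seq in J1 ESCs and in NSCs derived from them. The authors deposited 6 lists of peak starts and ends in mm9, which are positions without counts, heights or scores, each from 1 library against an input (4 input samples were not analysed here). Enrichment over input was scored by the authors in sliding 1 kb windows, moved by 200 bp, under a negative binomial model with a size parameter picked by inspection, and windows up to 1 kb apart were joined. The threshold was not given in the sources used here. The submitters' processing notes name BWA and the paper's methods Bowtie. Only the paper gives EGS as a second crosslinker for Ring1b. Samples were grouped by their labels.

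Peak ends fit the mm9 (NCBIM37) chromosome lengths on all 20 chromosomes. Genes came from the GENCODE annotation of that build. Overlaps of at least 1 bp, covered bases and composition were obtained with Python 3.11.15 (numpy 2.4.6), and figures drawn with matplotlib 3.10.9. The overlap step was tested on simulated data. Coverage is over the peaks as the authors gave them, and GENCODE exons were merged into blocks. The 5 genes and the partner lists, and the patterns of lists compared with all genes, were chosen with earlier results of these data known. All 5 AP-2 genes are named. Partner genes are named where their start is in an NSC peak, and up to 4 per list, in alphabetical order, where the start was in an ESC and not in an NSC Ring1b peak. Depth is unknown, so no counting interval is given, and with 1 library per list no test was possible. Alternatives were other flanks, any annotated start, a start within 1 kb of a peak, peaks at least 2 kb wide, and peaks within 3 kb merged.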

Additional observations from a re-analysis of the deposited data

How the results depend on the processing

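Of 120 alternative values, 104 stayed within a tolerance, 16 moved and 0 changed direction. The tolerance was 1.5 times for counts and for ESC minus NSC differences. For covered kb it was the 95% binomial interval of the covered share of 200 bp steps, which treats neighbouring steps as independent. The counts of AP-2 and partner genes at the start site all stayed within 1.5 times, though with peaks at least 2 kb wide ESC Cbx2 held 2 start sites in place of 3, and with a start within 1 kb of a peak NSC H3K27me3 held 3 in place of 2. Covered kb moved with the flank, by its construction. With the gene body alone, the covered bases were 31.1 kb for ESC Ring1b, 14.5 kb for ESC Cbx2, 9.88 kb for ESC Ezh2, 14.9 kb for ESC H3K27me3, 14.9 kb for NSC Ring1b and 5.71 kb for NSC H3K27me3, and the excess of ESC over NSC Ring1b went from 29.0 to 16.2 kb. With 5 kb on either side they were 49.7 kb for ESC Ring1b, 20.4 kb for ESC Cbx2 and 22.8 kb for NSC Ring1b. With 50 kb on either side they were 70.2 kb for ESC Ring1b, 32.2 kb for ESC Cbx2, 18.8 kb for ESC Ezh2, 29.8 kb for ESC H3K27me3 and 19.2 kb for NSC H3K27me3. These 50 kb values count some bases more than once. Tcfap2d and Tcfap2b lie 42.6 kb apart, so at this flank both windows take in the peaks over the Tcfap2b start. With peaks at least 2 kb wide, ESC Cbx2 covered 20.2 kb. No paired analysis was possible because each cell type and target has 1 library and no result comes from a test. The lists carry no depth, height or score, so a lost peak cannot be told apart from one below the threshold.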
